A study of Homo sapiens with 9 samples.

Results

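The transcripts described here are those that the annotation in the deposited tables types as retained-intron or as nonsense-mediated decay. Their levels are in TPM, which scales each library's transcripts to a fixed total after dividing reads by length. They number 41299 of 199324 transcripts, of which 27186 are retained-intron and 14113 are nonsense-mediated decay. They belong to 11531 of 58219 genes, and 6530 of these hosts are among the 9754 genes at 5 TPM or more in every library. The libraries come from MDA-MB-231, a human breast carcinoma line that lacks the hormone receptors, and the series concerns APT1, an acyl-protein thioesterase encoded by LYPLA1 that removes palmitate from proteins. There are 3 groups of 3 libraries. The control cells carry a scrambled RNA delivered by lentivirus, the shAPT1 cells carry a lentiviral short hairpin against APT1 and were selected with puromycin, and the APT1wt cells overexpress APT1wt from a lentivirus. All were grown in DMEM with FBS, and total RNA was sequenced to 12381931 to 18667383 estimated reads per library. Nothing in the labels ties the replicates to separate cultures, and p-values therefore measure only the spread between these libraries, which may be technical. Both engineered lines were compared with the same 3 control libraries.

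LYPLA1 itself matched the labels, at 87.1, 92.7 and 80.5 TPM in control, 38.2, 30.5 and 36.7 in shAPT1, and 169, 171 and 170 in APT1wt. Markers of the line were present (VIM at 1801 to 2373 TPM, CD44 at 659 to 923), and 9 markers of leukocytes, fibroblasts and endothelium stayed at or under 1.15 TPM. Of the genes taken as low or absent in this line, ESR1 and PGR did not pass 0.219 TPM. CDH1 was at 0.383 to 2.76 TPM, and EPCAM was present in every library at 7.42 to 10.9 TPM. Mitochondrially encoded genes took 4.95% to 7.21% of the estimated reads, with the highest share in control replicate 1.

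A retained-intron transcript keeps intronic sequence that the coding transcripts of its gene splice out. Such RNAs are often held in the nucleus and make little protein. A nonsense-mediated decay transcript has its stop codon well upstream of an exon junction. The exon junction complex left downstream of the stop marks the RNA to the UPF1 machinery, which degrades it, and many splicing-factor genes set their own level through such unproductive splicing.

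The sequences show what defines each class, for members described further on. They are read from the GENCODE 29 transcripts, on GRCh38. In the introns kept by EEF1A1 ENST00000488500.1 (chr6:73518849-73518931, minus strand), MCM7 ENST00000489841.5 (chr7:100099204-100099278, minus strand), MYEOV ENST00000535653.1 (chr11:69295496-69295591, plus strand) and SSNA1 ENST00000459860.1 (chr9:137188779-137189065, plus strand), capitals mark the GT and AG at the intron's ends.
EEF1A1: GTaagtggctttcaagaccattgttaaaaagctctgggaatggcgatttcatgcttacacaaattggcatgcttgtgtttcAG
MCM7: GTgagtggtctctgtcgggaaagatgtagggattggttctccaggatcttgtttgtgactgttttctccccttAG
MYEOV: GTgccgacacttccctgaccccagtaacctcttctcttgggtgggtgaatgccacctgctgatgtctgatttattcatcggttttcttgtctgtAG
SSNA1: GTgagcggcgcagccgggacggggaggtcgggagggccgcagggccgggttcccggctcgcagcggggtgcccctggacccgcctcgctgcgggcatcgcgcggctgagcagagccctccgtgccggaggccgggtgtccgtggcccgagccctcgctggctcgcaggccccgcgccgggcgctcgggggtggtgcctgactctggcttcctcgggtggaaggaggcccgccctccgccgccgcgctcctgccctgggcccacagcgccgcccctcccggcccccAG
In the decay transcripts, capitals mark the stop codon, with 15 bases before it and 12 after it.
RPS3 ENST00000528439.5: tgtggaacccaaagaTGAgatactgcccac
RPS3 ENST00000530721.5: acagaatgttcttggTGAgaagggccggcg
RPS3 ENST00000532872.5: ccgaggacagagggcTAAatccatgaagtt
RACK1: tgtggccttctcctcTGAcaaccggcagat
B2M: tgggatcgagacatgTAAgcagcatcatgg
SRSF6: gcagccttttgccatTAGacgcagggtgat
PDGFC: gcatctggactggcaTAGaaaagaggagaa
ROCK1: cttctagtcaagaatTGAaggttggctttc
LASP1: gcaaaggtttcagcgTAGtggcagacacgc
SETD2: ctttgggtactgtatTAGtccgttttcatg
The stop lies 88, 553 and 292 bases before the last exon junction in the 3 RPS3 transcripts, in that order. It lies 541 bases before it in RACK1, 112 in B2M, 534 in SRSF6, 829 in PDGFC, 696 in ROCK1, 311 in LASP1 and 3256 in SETD2. The 3 RPS3 stops differ in their place in the gene.

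By versioned identifier and length, 40976 members matched GENCODE 29. Of 13907 decay transcripts with an annotated stop, 13776 (99.06%) had it at least 50 bases before the last junction. The median distance was 304 bases, with a median of 3 junctions after the stop. The stop was TGA in 59.1%, TAA in 21.57% and TAG in 19.33%. The retained-intron class is broader than its name. Of 26999 matched transcripts, 7710 (28.56%) held a whole intron of a coding transcript inside an exon, and 23040 (85.34%) began or ended inside such an intron. The median length was 727 bases over 3 exons, against 981 bases over 7 exons for the decay class. The 10245 wholly kept introns had a median length of 257 bases (quartiles 125 and 585) and a median GC content of 56.8%, and 97.24% began with GT and ended with AG.

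The classes also differ in how far sequence alone tells a member from the other transcripts of its gene, which bears on how the quantifier Salmon divides reads. Among members of host genes at 5 TPM or more in every library, a retained-intron transcript had a median of 27.41% of its 31-base words in no other transcript of the gene, and 2955 of 18532 had none. A decay transcript had a median of 3.878%, and 2031 of 9109 had none. A level for a member with none rests on the model's division of shared reads.

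Most members were scarce. Of the retained-intron transcripts 4775 were listed at 0 in all 9 libraries, 8338 were above 0 in all, and 7641 had a mean of at least 1 TPM. Of the decay transcripts the numbers were 3173, 3016 and 3413. After edgeR's filter on low counts, 8155 retained-intron and 4146 decay transcripts were tested. The rest of the members have no test here. Whether the libraries keep strand is not given in the sources used here, so reads of overlapping genes on opposite strands cannot be told apart.

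As a class, retained-intron transcripts held between 5.31% and 5.90% of TPM in every library. The control libraries were at 5.313%, 5.708% and 5.622%, shAPT1 at 5.706%, 5.535% and 5.852%, and APT1wt at 5.794%, 5.897% and 5.758%. All APT1wt libraries lay above all control libraries, while shAPT1 overlapped with both. The means were 5.548% ± 0.208, 5.697% ± 0.159 and 5.817% ± 0.0721 (SD, n = 3 each), so APT1wt was higher than control by 0.269 percentage points. Matched members holding a whole coding intron took 1.421% ± 0.0831, 1.44% ± 0.105 and 1.456% ± 0.0123, in the same order. Those without took 4.073% ± 0.124, 4.202% ± 0.0528 and 4.301% ± 0.0566. The higher share in APT1wt was therefore mostly in members without a whole kept intron.

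Decay transcripts held about 3% of TPM. The values were 2.983%, 3.184% and 3.107% in control, 3.239%, 3.179% and 3.377% in shAPT1, and 3.187%, 3.247% and 3.203% in APT1wt. The APT1wt libraries again lay above the control libraries, by 0.121 percentage points in the mean, and shAPT1 overlapped with control by 1 library. In bulk RNA, fewer cells with a form and less of it per cell cannot be told apart. With 3 libraries against 3 an exact permutation test cannot go below 0.1, so these are descriptions. By estimated reads, which weight long transcripts more, retained-intron transcripts held 3.317% ± 0.0513 in control, 3.296% ± 0.0647 in shAPT1 and 3.408% ± 0.0399 in APT1wt. Decay transcripts held 2.860% ± 0.0416, 2.953% ± 0.0386 and 2.920% ± 0.0158. On that scale the groups apart from control were APT1wt for retained introns and shAPT1 for decay transcripts.

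The separation depended on which transcripts were counted. With only genes at 5 TPM or more in every library, APT1wt decay transcripts overlapped with control (lowest 3.193% against highest 3.197%). Retained introns stayed apart there. Without mitochondrially encoded genes, both lines lay above control for both classes, by 0.160 and 0.182 points for retained introns and 0.195 and 0.0683 points for decay transcripts (shAPT1 first). Without the 10 most abundant members, APT1wt overlapped with control in both classes, and shAPT1 decay transcripts lay above control without overlap, by 0.189 points. Control replicate 1 had the lowest share of TPM in both classes, the highest mitochondrial share and the lowest level of MALAT1, a nuclear noncoding RNA (201 TPM, range 201 to 500). The part of these in the class shares was not tested. Processed transcripts, a further noncoding class, also lay above control in both lines (4.808% ± 0.115 in control, 5.052% ± 0.0948 in shAPT1, 4.982% ± 0.0416 in APT1wt).

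**Figure D1:**
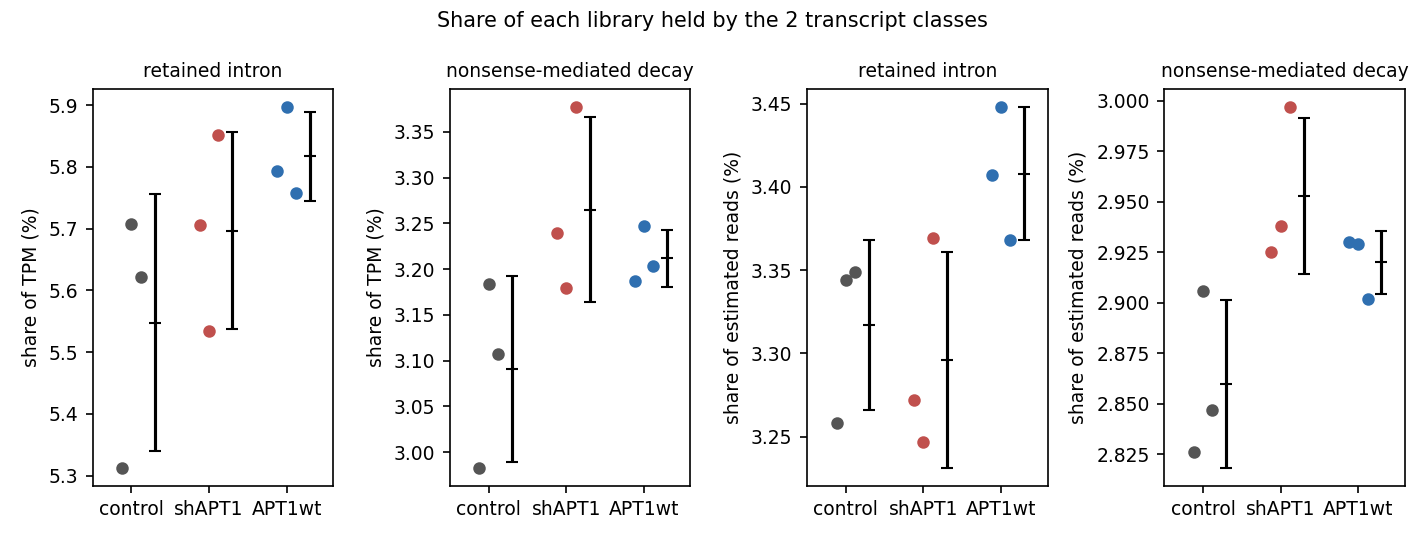
Share of each library held by retained-intron and by decay transcripts, in percent of TPM (2 panels at left) and of estimated reads (2 panels at right). Points are libraries, and the bars at the side give the group mean and SD. For retained introns by TPM, the APT1wt points sit between 5.758% and 5.897%, all above the control points at 5.313% to 5.708%.

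The most abundant retained-intron members included those of RPS28, RPL14 and EEF1A1. RPS28 ENST00000417088.2 (chr19:8321634-8322396), from a gene for a small-subunit ribosomal protein, was at 1596, 1450 and 1310 TPM in control, 1187, 1720 and 1392 in shAPT1, and 1679, 1579 and 1443 in APT1wt. It made up 89.3% of the RPS28 signal in control, and the 3 groups overlapped. RPL14 ENST00000479563.5 (chr3:40457877-40462368), from a large-subunit gene, was at 1363, 1278 and 1331 TPM, then 1216, 1256 and 1218, then 1387, 1353 and 1385, with 95.5% of its gene in control. EEF1A1 ENST00000488500.1, from the elongation factor gene whose kept intron is printed earlier, varied most. It was at 426, 1258 and 1376 TPM in control, 1856, 832 and 1443 in shAPT1, and 1032, 906 and 1331 in APT1wt. A single control library was low, and the spread within groups exceeded any difference between them.

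Among decay transcripts the highest were RACK1 ENST00000504325.5, from the gene of a ribosome-bound scaffold, and B2M ENST00000561424.5, from the gene of the MHC class I light chain. RACK1 was at 930, 883 and 917 TPM in control, 851, 800 and 871 in shAPT1, and 1074, 983 and 917 in APT1wt. Its 31-base words all occur in other RACK1 transcripts. B2M was at 610, 644 and 636, then 706, 614 and 602, then 583, 708 and 678 TPM, about 51.2% of its gene in control. The stop codon of this B2M form is printed earlier, 2 junctions before its end. RPS25 ENST00000532567.5, from another small-subunit gene, was at 472, 540 and 532 TPM in control, 662, 654 and 647 in shAPT1 and 618, 607 and 721 in APT1wt, apart from control in both lines but short of the threshold (edgeR adjusted p = 0.153 and 0.111). None of the 16 most abundant members passed in any comparison.

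Within host genes the classes were a minor but wide-ranging fraction. In 4687 genes at 5 TPM or more in every library, retained-intron transcripts held a median of 9.58% of the gene's TPM (quartiles 3.88% and 21.2%), and in 2977 such genes decay transcripts held 9.12% (3.61% and 20%). Retained-intron forms were the majority in every library in 105 genes and decay forms in 70. Under 1% in every library were 373 of 5686 hosts for retained introns and 437 of 4120 for decay forms. These 2 totals are hosts at 5 TPM or more in every library, before the minimum on class level given under processing. Among the retained-intron majorities were EIF3L, of the initiation factor that bridges mRNA and ribosome (81.2%, 75.3% and 80.4% in control, shAPT1 and APT1wt), SF3B3, of the U2 snRNP (75.7%, 75% and 76.5%), and LAMB2, a laminin chain (74.2%, 75.9% and 76.0%). Among the decay majorities were PDIA3, a protein disulfide isomerase (89.7%, 90.8% and 89.8%), and SRSF6, an SR splicing factor (65.0%, 66.8% and 65.3%). These 5 genes were chosen after their values were seen. They come from the genes with a majority in every library, so their majority in each line is set by that choice.

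The spread between libraries of a group was 2.90 percentage points in the median retained-intron gene and 3.28 in the median decay gene (SD). Correlation of the shares across genes was 0.908 to 0.925 between libraries of a group and 0.896 to 0.927 between groups for retained introns, and 0.901 to 0.919 against 0.873 to 0.922 for decay forms. Genes are not independent replicates and the correlations are descriptions.

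No host gene passed an adjusted p of 0.05 for its retained-intron or decay share in any of the 3 comparisons (limma, Benjamini-Hochberg over 12027 gene and class pairs, of which 0% passed in shAPT1 against control, 0.00831% in APT1wt against control and 0% in shAPT1 against APT1wt). edgeR on the class reads also called 0. At an unadjusted p under 0.05, limma gave 142 higher and 149 lower retained-intron genes in shAPT1 against control (edgeR gave 245 in all), and 140 higher and 121 lower decay genes (edgeR 197). In APT1wt against control there were 125 and 97 for retained introns (edgeR 185), and 96 and 95 for decay forms (edgeR 153). In shAPT1 against APT1wt there were 115 and 129 (edgeR 198), and 103 and 106 (edgeR 155). These are 6.21%, 4.74% and 5.21% of the 4687 retained-intron genes tested, in the same order of comparisons, and 8.77%, 6.42% and 7.02% of the 2977 decay genes. The corresponding part of the 4363 genes tested for processed transcripts was 7.04%, 6.21% and 5.55%.

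Groups that did not overlap were about as frequent among members as among all pairs. In shAPT1 against control 263 retained-intron genes were above and 268 below without overlap, 11.3% of those tested, and decay genes gave 12%, where all pairs gave 11.5%. In APT1wt against control the shares were 11.1% and 10.5%, where all pairs gave 11.1%. In shAPT1 against APT1wt they were 11.6% and 11.7%, where all pairs gave 11.3%. The median change in log2 odds of the share lay between -0.01 and 0.03 in all 6 cases, and the median standard error per gene was 0.375 for retained introns and 0.43 for decay forms.

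Among the host genes with the smallest p, HMGXB3, a high-mobility-group box gene, came nearest. Its decay share was 0%, 0% and 0.232% in control, 11.8%, 5.47% and 11.5% in shAPT1, and 0% in all 3 APT1wt libraries. The form was near absent outside shAPT1 and present in each shAPT1 library, with a change of 2.95 ± 0.40 in log2 odds against control (SE, adjusted p = 0.121) and 3.08 ± 0.40 against APT1wt (adjusted p = 0.0902). SPSB3, of a ubiquitin-ligase substrate receptor, had a retained-intron share of 16.4%, 34.1% and 20.8% in control, 48.4%, 33.1% and 46.8% in shAPT1 and 61.8%, 68.4% and 55.6% in APT1wt. All APT1wt libraries were above all others (2.14 ± 0.36 against control, adjusted p = 0.238). DDX39B, an RNA helicase of splicing and mRNA export, was at 24.1%, 23.7% and 25.2% in control, 34.5%, 29% and 31.4% in shAPT1, and 25.1%, 22.3% and 23.3% in APT1wt, with shAPT1 apart from both (0.52 ± 0.12 against control, adjusted p = 0.541). These 3 were named after their values were seen.

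LYPLA1 has a retained-intron transcript of its own among the members. ENST00000517297.5 (chr8:54054453-54101854) was at 0.925, 1.51 and 1.46 TPM in control, 1.80, 0.837 and 0.989 in shAPT1, and 2.05, 1.34 and 2.08 in APT1wt. The 3 groups overlapped, with log2 fold changes of -0.15 ± 0.46 and 0.48 ± 0.46 against control (edgeR adjusted p = 0.964 and 0.831), while those of the gene were -1.29 and 0.60. The gene values rest on reads summed without regard to transcript length, unlike the LYPLA1 levels in TPM given earlier. Whether the transcript moved apart from the gene's other transcripts was tested through its share, and this did not pass in any comparison. Its share of LYPLA1 was 1.5%, 3.38% and 1.07% in the mean of control, shAPT1 and APT1wt, and the difference between shAPT1 and APT1wt was 1.83 ± 0.37 in log2 odds (limma adjusted p = 0.418).

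Splicing factors are the best known hosts of poison exons and retained introns. Of 43 SR and hnRNP genes, 30 were tested for each class and 0 passed in any comparison (limma, and edgeR on reads). Their median retained-intron share was 10.9% and their median decay share 8.65%, near those of all host genes. The median change in log2 odds of retained-intron share was 0.04 in shAPT1 and 0.08 in APT1wt, and that of decay share -0.09 and -0.01. TIA1, an RNA-binding protein of stress granules and splicing, had the highest retained-intron share. It was 50.9%, 53.9% and 54.5% in control, 64.6%, 57.2% and 59.2% in shAPT1, and 52.5%, 57.6% and 46.4% in APT1wt. The shAPT1 libraries lay above the control libraries (0.42 in log2 odds, adjusted p = 0.766). SRSF6 had the highest decay share, at 66.4%, 62.7% and 65.9%, then 63.6%, 67.3% and 69.5%, then 66.5%, 63.4% and 65.9%, and overlapped throughout.

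A few single transcripts of these splicing factors passed the edgeR test. Of 111 retained-intron transcripts tested, 1 rose in shAPT1 (0.996% of all transcripts did) and 2 rose in APT1wt (0.882% of all). In shAPT1 against APT1wt 1 was lower (0.651% of all). Of all 8155 retained-intron transcripts tested, 10, 18 and 16 did so, in the same order. Counts this small cannot be set apart from either background. Of 57 decay transcripts, 0 passed. HNRNPC ENST00000555127.1, from a gene whose protein binds uridine tracts in introns, was at 4.14, 4.03 and 2.63 TPM in control, 12.1, 9.99 and 9.86 in shAPT1, and 7.10, 6.76 and 6.68 in APT1wt. The 3 groups stood apart, and the rise in shAPT1 was 1.5 ± 0.25 in log2 (adjusted p = 0.027), though it held in 1 of 9 fits that each left out a library (adjusted p up to 0.093), and none of its 31-base words is unique within the gene. RBM39 ENST00000463004.5, from a U2AF-related splicing factor gene, was at 17.7, 18.2 and 22 TPM in control, 26.9, 26.4 and 27.1 in shAPT1, and 29.1, 31.7 and 32.2 in APT1wt. Its rise in APT1wt was 0.69 ± 0.09 (adjusted p = 0.00907) and held without any 1 library, where its gene changed by 0.27. HNRNPH1 ENST00000513972.5 was at 54.8, 64.7 and 60.9 TPM in control, 62.1, 58.6 and 69.3 in shAPT1, and 81.6, 85.3 and 81.4 in APT1wt, higher in APT1wt than in either other group (0.47 ± 0.08 against control, adjusted p = 0.0264, held in 2 of 9 such fits).

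The other lists gave 0 calls for share or transcript. Of 9 kinases that phosphorylate SR proteins, CLK1 had the highest retained-intron share (47.9%, 34.7% and 52.8% in control, 45.2%, 42.8% and 47.0% in shAPT1, 49.9%, 44.5% and 44.1% in APT1wt). Of 25 factors of decay and the exon junction complex, SMG9 was highest (53.6%, 46.9% and 51.6%, then 43.4%, 45.1% and 51.9%, then 46.4%, 51.6% and 49.6%). For CLK1 and SMG9 the groups overlapped. OAZ1, the ornithine decarboxylase antizyme, was at 58.9%, 56.7% and 58.8%, then 53.4%, 58.2% and 54.8%, then 60.0%, 56.8% and 55.2%. OGT, the O-GlcNAc transferase whose detained intron responds to its own activity, was at 36.3%, 34.5% and 36.5%, then 34.4%, 33.3% and 37.6%, then 32.7%, 35.0% and 37.6%. RPS3 decay forms were at 65.5%, 68.6% and 71.8%, then 70.1%, 67.5% and 70.9%, then 66.7%, 66.2% and 70.9%. These proportions were high in every line, and the 3 groups overlapped. In the lists of 7 ribosomal protein genes, 12 stress genes and 10 genes of polyamines, methionine, O-GlcNAc and iron, at most 6 genes could be tested for a class.

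**Figure D2:**
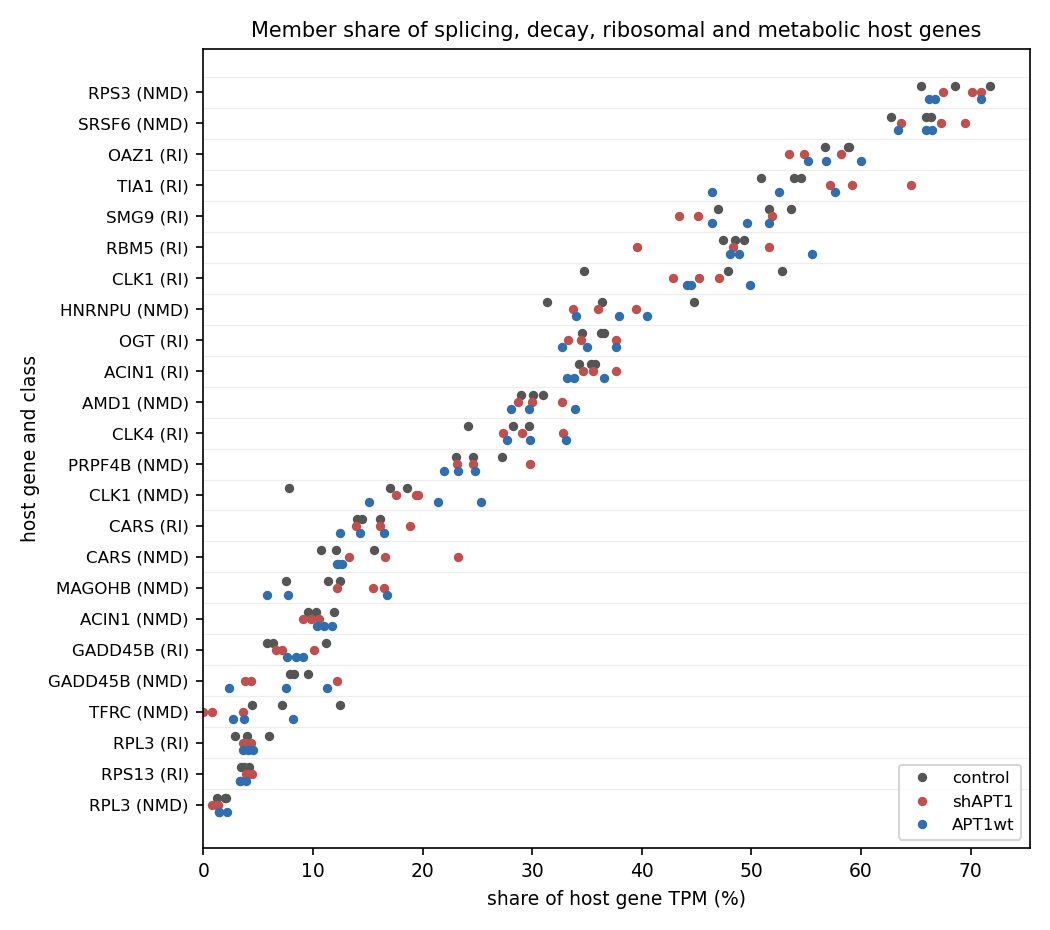
Share of host gene TPM held by retained-intron (RI) or decay (NMD) transcripts, in percent, for the 2 host genes of highest share in each list and class. Each point is a library, with 1 row of points per group. SRSF6 and RPS3 decay forms lie between 62.7% and 71.8% in all groups.

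At the level of single transcripts, few members differed. In shAPT1 against control 10 of 8155 retained-intron transcripts rose and 9 fell, and 15 of 4146 decay transcripts rose and 9 fell (edgeR, adjusted p under 0.05). That is 0.233% and 0.579%, where 1.62% of all tested transcripts (0.996% higher, 0.624% lower) and 2.4% of protein-coding ones passed. In APT1wt against control 18 retained-intron transcripts rose and 5 fell, and 13 decay transcripts rose and 9 fell, which is 0.282% and 0.531% where 1.43% of all transcripts (0.882% higher, 0.548% lower) and 2.02% of protein-coding ones passed. In shAPT1 against APT1wt 5 retained-intron transcripts were higher and 16 lower, and 11 decay transcripts were higher and 9 lower, where 1.3% of all transcripts (0.647% higher, 0.651% lower) and 1.88% of protein-coding ones passed. DESeq2 called more, 189 and 155 in shAPT1 against control and 166 and 139 in APT1wt against control (retained-intron first). The share of all transcripts that DESeq2 called was not counted, so these numbers have no background beside them.

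Most of these members moved with their gene, whose total includes the member itself. In shAPT1 against control the host gene passed in the same direction for 18 of 19 retained-intron and 15 of 24 decay transcripts, and in APT1wt for 21 of 23 and 14 of 22. For genes as a whole 24.4% and 23.4% passed, counted in either direction. Without each library in turn, 3 retained-intron and 4 decay calls in shAPT1 held in all 9 fits, as did 7 and 6 in APT1wt. Of these, 2 and 3 in shAPT1 and 7 and 5 in APT1wt also held under all 7 other settings. With only the compared groups in the fit, shAPT1 gave 2 and 4 calls and APT1wt 15 and 20. The number called was sensitive to single libraries. In shAPT1 it fell to 4 retained-intron calls without shAPT1 replicate 2 and to 10 decay calls without control replicate 1, and in APT1wt to 9 without control replicate 3 and to 8 without APT1wt replicate 2.

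PDGFC, ROCK1, EXT1, MYEOV, PAQR3, COL7A1, MCM7, N4BP2L2 and the 3 splicing-factor transcripts that passed were named after their values were seen. PDGFC ENST00000274071.6 (chr4:156761614-156971315), a decay form from a platelet-derived growth factor gene, was at 28.2, 28.8 and 28.1 TPM in control, 45.2, 46.0 and 45.0 in shAPT1, and 35.2, 35.0 and 35.1 in APT1wt. The libraries of a group nearly coincided. It rose in shAPT1 by 0.62 ± 0.06 (adjusted p = 0.00341), beside 0.59 for the gene. ROCK1 ENST00000635540.1 (chr18:20949952-21111020), a decay form from a kinase gene of the actomyosin cytoskeleton, was at 25.2, 28.0 and 28.0, then 54.9, 45.7 and 45.4, then 31.8, 32.8 and 31 TPM. It rose in shAPT1 by 0.79 ± 0.07 (adjusted p = 0.00345), beside 0.70 for the gene. EXT1 ENST00000437196.1 (chr8:117799820-118111342), from a heparan sulfate polymerase gene, was at 84.0, 86.6 and 88.7, then 122, 122 and 124, then 116, 127 and 121 TPM. It rose in both lines, by 0.45 ± 0.05 and 0.49 ± 0.05 (adjusted p = 0.00779 and 0.00455), beside 0.43 and 0.53 for the gene. In these 3 genes the decay form is 57.4%, 71.4% and 59.9% of the control level, so it is itself much of the gene change beside it.

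Lower in shAPT1 in all 9 fits without a library were MYEOV and MYBBP1A among retained introns and PAQR3 among decay forms. MYEOV ENST00000535653.1, which keeps the intron printed earlier, was at 110, 128 and 121 TPM in control, 77.2, 75.8 and 87.9 in shAPT1 and 96.9, 105 and 97.7 in APT1wt. It fell by 0.63 on the log2 scale in shAPT1 (SE 0.06, adjusted p = 0.00428), as did its gene by 0.64, and has no 31-base word of its own within the gene. MYBBP1A ENST00000571368.5 (chr17:4538902-4543299), from a gene for a nucleolar MYB-binding protein, was named by the size rule given under processing. It was at 14.8, 19.1 and 16.0 TPM in control, 9.38, 8.70 and 7.92 in shAPT1, and 13.3, 13.9 and 13.7 in APT1wt, with shAPT1 below both. It fell by 0.99 (SE 0.12, adjusted p = 0.00878) where its gene fell by 0.28. PAQR3 ENST00000395594.2, from a Golgi receptor-family gene, was at 12.2, 13.4 and 13.9, then 5.76, 3.6 and 5.33, then 10.8, 9.71 and 10.5 TPM, and fell by 1.49 in shAPT1 (adjusted p = 0.00493), beside 1.14 for the gene.

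C4BPB, of the complement regulator C4b-binding protein, gave the largest rise in shAPT1 that held in every such fit. Its retained-intron transcript ENST00000469326.1 (chr1:207094934-207099983) was at 2.07, 1.98 and 1.49 TPM in control, 13, 11.2 and 12.2 in shAPT1, and 5.58, 4.43 and 2.48 in APT1wt. It rose by 2.66 ± 0.30 (adjusted p = 0.00713) and its gene by 2.70, and its share of the gene was 12.4% in control and 11.2% in shAPT1. Another form, ENST00000492730.1, rose by 2.98 ± 0.51 (adjusted p = 0.0311, held in 2 of 9 such fits, up to 0.123).

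In APT1wt the retained-intron form of IGFN1, an immunoglobulin and fibronectin domain gene of muscle, rose most among those that held. ENST00000473483.1 (chr1:201213096-201228952) was at 0.678, 0.486 and 1.15 TPM in control, 0.915, 0.620 and 0.875 in shAPT1, and 11.2, 7.89 and 7.02 in APT1wt. The means were 0.772, 0.803 and 8.69 TPM, and the rise in APT1wt was 3.5 ± 0.35 (adjusted p = 0.00409) beside 3.17 for the gene. COL7A1 ENST00000487017.5, from the anchoring-fibril collagen gene, was at 6.13, 5.37 and 6.19, then 5.77, 4.55 and 4.49, then 14.0, 18.5 and 14.2 TPM, and rose in APT1wt by 1.40 ± 0.14 (adjusted p = 0.00409) beside 1.59 for the gene. LINC01278 ENST00000608623.1 (chrX:63426560-63431612), of a noncoding RNA gene, was at 4.30, 4.34 and 4.74 TPM in control, 3.02, 2.94 and 3.45 in shAPT1, and 1.93, 2.14 and 1.95 in APT1wt. The 3 groups stood apart in that order, and it fell in APT1wt by 1.15 (SE 0.12, adjusted p = 0.00442), beside 1.06 for the gene.

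**Figure D3:**
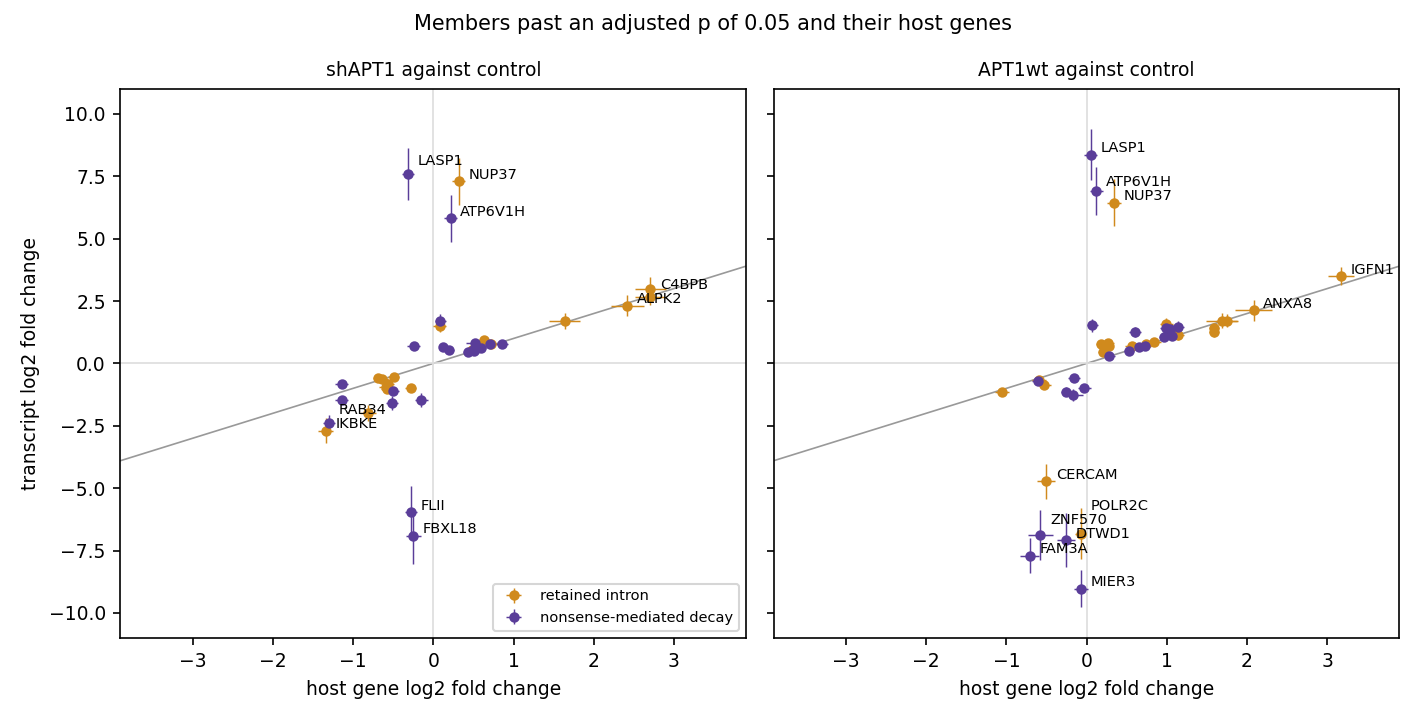
Log2 fold change of members past an adjusted p of 0.05 (vertical) against that of its host gene (horizontal), with standard errors, in shAPT1 and in APT1wt against control. The grey line marks equal change, and each gene's total includes the member. Points near the line, such as C4BPB and IGFN1, moved with their gene, and points at the top and bottom near a horizontal value of 0, such as LASP1 and MIER3, did not.

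The largest changes were in members near 0 in at least 1 group. Over the 3 comparisons 15 members passed with a log2 fold change over 4 in size. Of the 13 whose sequence could be compared with the rest of the gene, 7 had no 31-base word of their own and 9 had under 5%. Of the other 74 members that passed, 67 could be compared, and 10 had none and 33 had under 5%. The part of read division in these changes was not tested.

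LASP1 ENST00000585841.5 (chr17:38870031-38919326), a decay form from an actin-binding protein gene, was listed at 0 in all control libraries. It was at 0.631, 2.49 and 2.48 TPM in shAPT1 and 4.34, 2.46 and 2.48 in APT1wt. Against a floor of 3 reads per library it was at least 7.23-fold higher in shAPT1 and at least 12.1-fold higher in APT1wt (adjusted p = 0.0284 and 0.0214), with gene changes of -0.32 and 0.05. It has no 31-base word of its own and held in 1 and 3 of 9 such fits (adjusted p up to 0.0906 and 0.0722). NUP37 ENST00000551200.5 (chr12:102076993-102120091), a retained-intron form from a nuclear pore gene, was also listed at 0 in control, and at 2.03, 1.76 and 2.02 TPM in shAPT1 and 0.612, 0.844 and 1.65 in APT1wt. It was at least 5.94-fold higher in shAPT1 (edgeR adjusted p = 0.023) and also passed in APT1wt (adjusted p = 0.0344). The NUP37 calls held in 2 and 0 of 9 such fits (up to 0.0888 and 0.0998), and 29.2% of its 31-base words are its own. Both forms were at 0 in every control library and above 0 in every library of both lines.

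ATP6V1H ENST00000524164.5, a decay form from a proton pump subunit gene, was at 0.00861, 0.0511 and 0 TPM in control, 3.09, 0.611 and 1.53 in shAPT1, and 3.5, 3.64 and 3.51 in APT1wt. Its fitted log2 changes were 5.81 ± 0.95 and 6.91 ± 0.95 (adjusted p = 0.0263 and 0.0142), and it held in 3 and 5 of 9 such fits (up to 0.0964 and 0.0639). Its gene changed by 0.21 and 0.12, neither past the threshold. SETD2 ENST00000330022.11, from the gene of the H3K36 methyltransferase, was measured above 0 in every library, at 0.779, 0.489 and 0.429 TPM in control, 2.26, 1.65 and 1.93 in shAPT1, and 1.76, 1.80 and 1.36 in APT1wt. Both lines lay above control, by 1.72 ± 0.27 and 1.53 ± 0.27 (adjusted p = 0.0229 and 0.0349), with gene changes of 0.09 and 0.07 that did not pass. It held in 5 and 2 of 9 such fits (up to 0.0919 and 0.129).

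Members that vanished in a single line included MIER3 and FAM3A in APT1wt, and both calls held in all 9 such fits. MIER3 ENST00000452157.5, a decay form from a chromatin-associated gene, was at 1.07, 0.701 and 1.80 TPM in control and 0.687, 0.568 and 0.909 in shAPT1, and rounded to 0 reads in all APT1wt libraries. That is at least 22.5-fold lower than control (adjusted p = 0.00595), with a gene change of -0.07. FAM3A ENST00000621967.4, from a cytokine-like gene, was at 1.23, 0.947 and 2.06 TPM in control and 2.56, 3.6 and 3.59 in shAPT1, and rounded to 0 reads in all APT1wt libraries, at least 9.05-fold lower than control (adjusted p = 0.00746). The FAM3A call was lost with only the compared groups in the fit and with the replicate number as a block (adjusted p up to 0.0594). Its gene fell by 0.71. Neither form has a 31-base word of its own within its gene.

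The HMGXB3 decay form ENST00000514469.1 was at 4.18, 1.81 and 4.62 TPM in shAPT1 and 0 in all APT1wt libraries, at least 10.1-fold higher in shAPT1 (adjusted p = 0.0474, held in 0 of 9 such fits, up to 0.132). DTWD1, POLR2C, CERCAM, FLII, ZNF570 and FBXL18 were further members with large changes, all lower than control (edgeR adjusted p between 0.0211 and 0.0487). FLII and FBXL18 fell in shAPT1, by 5.97 and 6.91 on the log2 scale. The others fell in APT1wt, by between 4.73 (CERCAM) and 7.08 (DTWD1). ZNF570 and FBXL18 were named after their values were seen. In the order first listed, the 6 calls held in 1, 0, 5, 1, 0 and 0 of 9 fits without a library (adjusted p up to 0.136). All 6 calls were lost with only the compared groups in the fit and with the replicate block (up to 0.202).

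**Figure D4:**
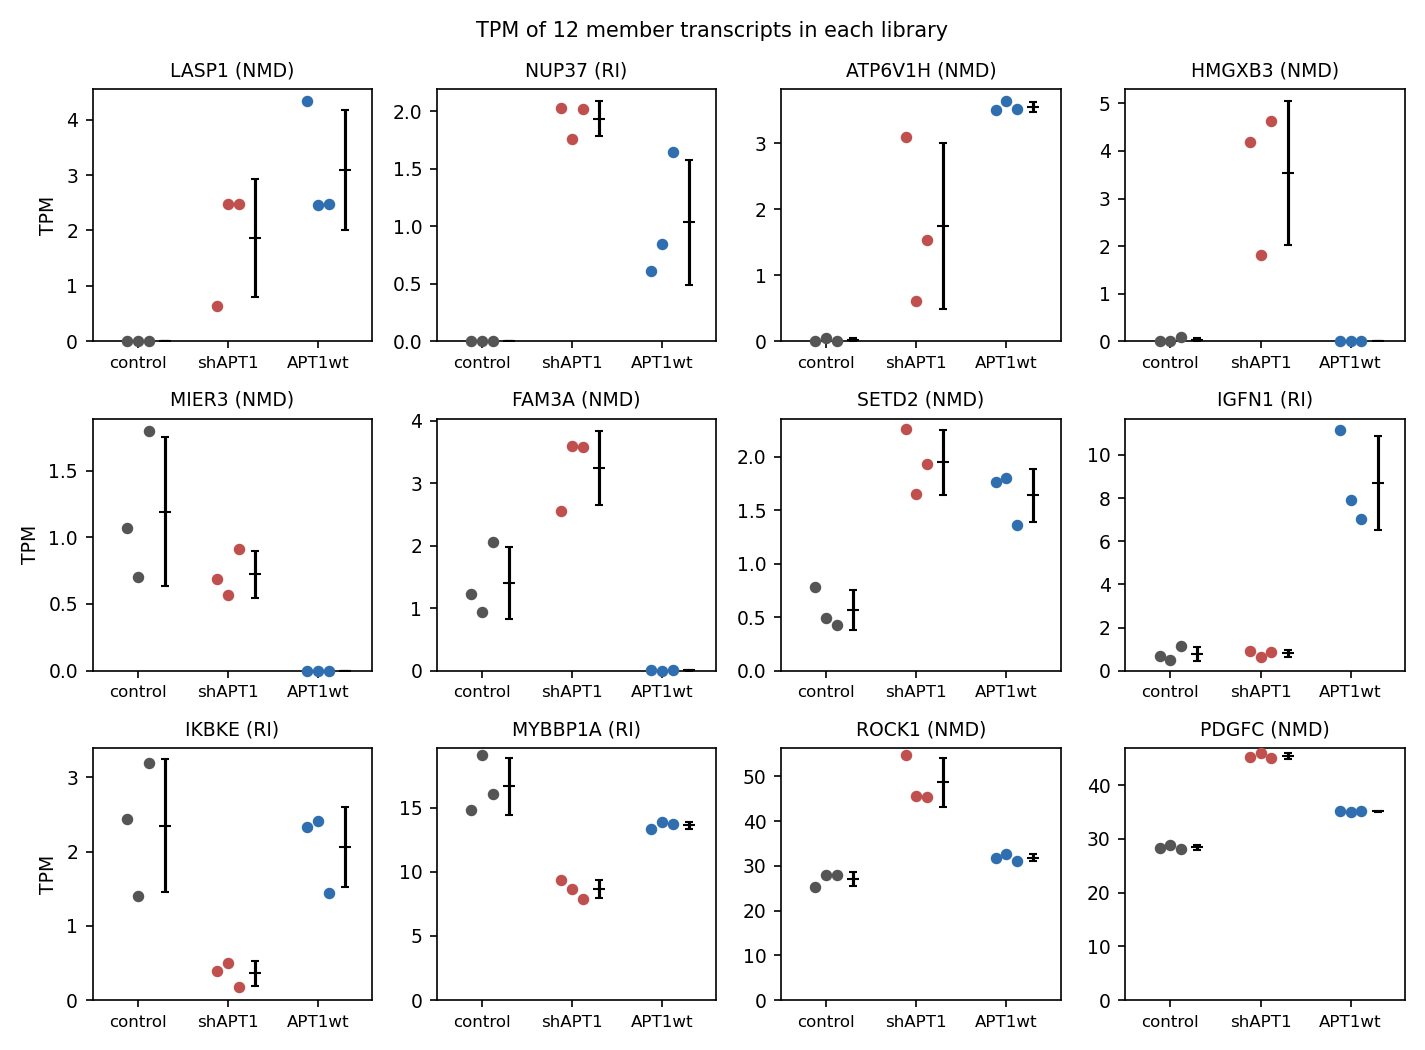
TPM of 12 members in each library, with the group mean and SD beside the points. RI marks retained-intron and NMD decay transcripts. LASP1 and NUP37 sit at 0 in control only, MIER3 and FAM3A at or near 0 in APT1wt only, and PDGFC shows the tightest groups.

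Between these extremes lay members that fell in shAPT1 by more than their gene. SPPL2A ENST00000560288.1, a retained-intron form from an intramembrane protease gene, was at 13.9, 11.6 and 12.5 TPM in control, 2.55, 4.8 and 2.39 in shAPT1, and 12.6, 16.9 and 14.2 in APT1wt. It fell in shAPT1 by 1.98 (SE 0.32, adjusted p = 0.0254) and its gene by 0.81. RAB34 ENST00000636772.1, a decay form from a small GTPase gene, was at 9.07, 6.99 and 4.63, then 1.19, 1.28 and 1.65, then 6.24, 5.47 and 6.43 TPM. It fell by 2.39 (SE 0.32, adjusted p = 0.0144) and its gene by 1.30. IKBKE ENST00000605818.5, from a kinase gene of innate immune signalling, was at 2.45, 1.41 and 3.19, then 0.398, 0.506 and 0.177, then 2.33, 2.42 and 1.44 TPM, and fell by 2.69 (SE 0.52, adjusted p = 0.0486) where its gene fell by 1.34. In all 3 the shAPT1 libraries lay below the other 6. The SPPL2A, RAB34 and IKBKE calls held in 2, 7 and 0 of 9 such fits (up to 0.0831, 0.070 and 0.146).

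Other members named by size moved about as far as their gene in some cases and not in others. MUSK ENST00000374438.1, a retained-intron form from the gene of the receptor kinase of the neuromuscular junction, was at 3.28, 1.96 and 2.16 TPM in control, 8.54, 8.94 and 7.96 in shAPT1, and 11, 6.54 and 6.91 in APT1wt. It rose by 1.71 in each line (adjusted p = 0.039 and 0.0405), beside 1.64 and 1.68 for the gene. ALPK2 ENST00000589204.1, from an alpha-kinase gene, rose in shAPT1 by 2.32 (adjusted p = 0.036), beside 2.42 for the gene, and ANXA8 ENST00000602877.1, from an annexin gene, rose in APT1wt by 2.12 (adjusted p = 0.0494), beside 2.08. In contrast, ZNF44 ENST00000600003.5, a decay form from a zinc finger gene, was at 2.22, 2.59 and 2.51 TPM in control, 1.54, 1.74 and 1.97 in shAPT1, and 1, 0.919 and 1.1 in APT1wt. It fell in APT1wt by 1.26 (adjusted p = 0.0496) where the gene's change of -0.17 did not pass. POLR2E ENST00000215587.11, of a subunit shared by the nuclear RNA polymerases, and EHD1 ENST00000484846.1, of an endocytic recycling protein, fell in shAPT1 by 1.59 and 1.04 (adjusted p = 0.0358 and 0.017), beside 0.51 and 0.58 for their genes. These calls held in 0, 0, 1, 1 and 6 of 9 such fits for ALPK2, ANXA8, ZNF44, POLR2E and EHD1, and in 1 for MUSK in each line (adjusted p up to 0.0719 for EHD1 and 0.177 for ZNF44).

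SSNA1 and MCM7 show a kept intron in a gene that fell in shAPT1. SSNA1 ENST00000459860.1, from a microtubule-binding protein gene, was at 48.8, 42.5 and 40.2 TPM in control, 26.6, 22.1 and 22.7 in shAPT1, and 20.7, 29.5 and 22.4 in APT1wt. Both lines lay below control. The form fell by 0.94 and 0.86 on the log2 scale (adjusted p = 0.0275 and 0.0394), and the gene fell by 0.59 and 0.53. MCM7 ENST00000489841.5, from a replicative helicase gene and 50% of it in control, was at 114, 103 and 116 TPM in control, 77.1, 67.8 and 91.2 in shAPT1, and 92.3, 91.1 and 88.6 in APT1wt. It fell in shAPT1 by 0.56 (adjusted p = 0.0317) and its gene by 0.49. Neither intron can be counted apart from the gene's other transcripts by sequence, since 0% and 0.0402% of the 31-base words are the form's own. Their calls held in at most 3 of 9 such fits.

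Members on chromosome 13 were mostly higher in both engineered lines, a grouping chosen after the values were seen. Of 120 tested members on chromosome 13, 13 rose and 0 fell in APT1wt against control (10.8%), where 17 of 12067 members on other chromosomes rose (0.141%). Their median log2 change was 0.65, and 90.0% were above 0. In shAPT1 4 rose and 0 fell (3.33%, against 0.166% elsewhere), with a median of 0.29. In shAPT1 against APT1wt 4 were lower and 0 higher (3.33% lower, against 0.174% elsewhere), with a median of -0.37. Among the other 22 chromosomes the medians ran from -0.37 (X) to 0.27 (chromosome 8) in APT1wt, and from -0.15 (chromosome 7) to 0.26 (chromosome 18) in shAPT1. On X 2 of 190 members fell in APT1wt and 0 rose, and on chromosome 18 3 of 186 rose in shAPT1 and 0 fell. The host genes moved likewise, with 89 of 100 higher and 0 lower in APT1wt (median 0.69) and 64 higher and 2 lower in shAPT1 (median 0.32). Of 8553 host genes elsewhere, 1071 were higher and 972 lower in APT1wt, and 1150 higher and 1050 lower in shAPT1. What separates these genes from the rest was not tested.

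In their means, the named members on chromosome 13 lay in the order control, shAPT1, APT1wt. All had passed as higher in APT1wt against control, so that part of the order is set by the choice. SKA3 ENST00000298260.8 (chr13:21153595-21176548), a decay form from a kinetochore gene, was at 19.8, 16.2 and 18.0 TPM in control, 38.7, 31.3 and 29.5 in shAPT1, and 52.1, 42.8 and 43.9 in APT1wt. It rose by 0.82 ± 0.14 and 1.37 ± 0.14 (adjusted p = 0.0312 and 0.00435), and its gene by 0.52 and 1.05. N4BP2L2 ENST00000503814.1 (chr13:32516894-32525579), a retained-intron form, was at 4.30, 4.27 and 3.81, then 7.44, 6.46 and 6.56, then 9.67, 10.2 and 9.03 TPM, and rose by 0.67 ± 0.10 and 1.23 ± 0.10 (adjusted p = 0.017 and 0.00209). GTF3A ENST00000419181.5 (chr13:27424662-27435688), a decay form from the gene of the 5S RNA transcription factor, was at 15.2, 12.8 and 10.2, then 35.0, 25.6 and 20.2, then 34.4, 40.6 and 30.6 TPM. It rose in APT1wt by 1.46 ± 0.24 (adjusted p = 0.0264) and did not pass in shAPT1. The APT1wt calls of SKA3 and N4BP2L2 held in all 9 such fits, and that of GTF3A in 3 (up to 0.108). Also held there in all 9 were ZMYM2 ENST00000382883.7 (retained-intron), PDS5B ENST00000450460.5 and ZDHHC20 ENST00000626464.2 (both decay), with rises of 1.26, 1.04 and 1.08 in APT1wt.

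**Figure D5:**
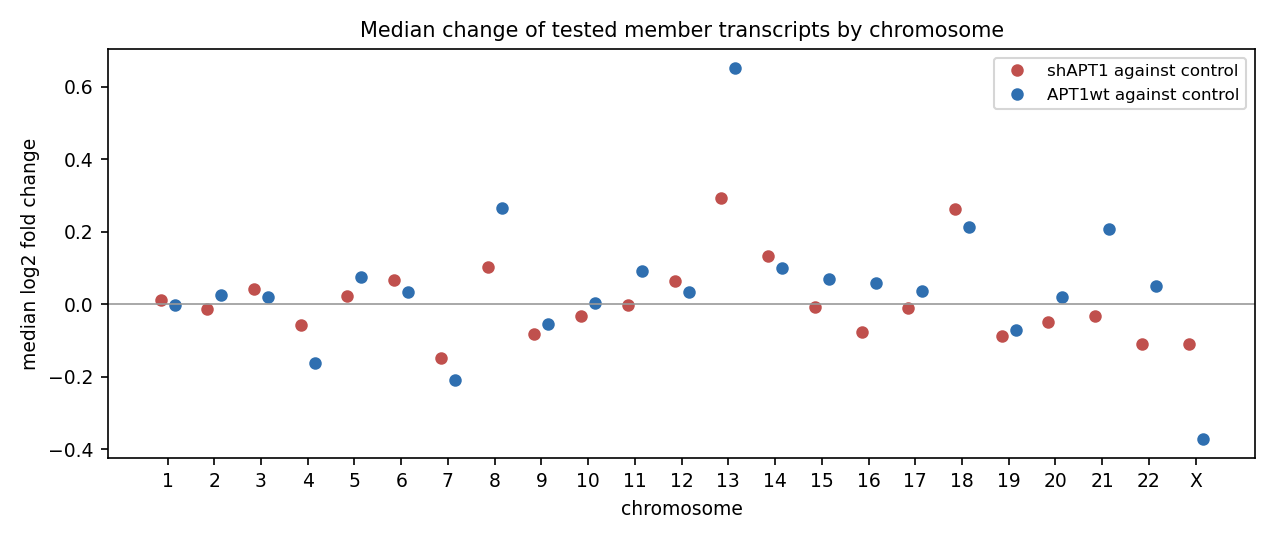
Median log2 fold change of the tested retained-intron and decay transcripts on each chromosome, in shAPT1 and in APT1wt against control. Chromosome 13 stands at 0.65 in APT1wt and 0.29 in shAPT1, above all other chromosomes in each comparison.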

How the data were processed

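Total RNA of 9 MDA-MB-231 libraries was sequenced, 3 each of control, shAPT1 and APT1wt. Per the submitters' processing notes, the authors used FastQC, Salmon and DESeq2 on GRCh38.p10, with no versions. The deposited Salmon tables give estimated counts (expected counts) and TPM for each transcript, and type it by its annotation class; the annotation release is not given in the sources used here. A deposited gene table was not used. Depth was 12381931 to 18667383 estimated reads, and counting floors (3 reads per library) cover counting error only.

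Class shares are sums of TPM or estimated reads over a library or host gene. Host shares were tested with limma 3.58.1 on log2((class TPM + 0.5)/(other TPM + 0.5)), in hosts at 5 TPM or more in every library with a mean class level of at least 0.5 TPM. A log2 change on this scale understates that of low forms. Estimated counts, rounded, were tested per transcript with edgeR 4.0.16 (filterByExpr, TMM, quasi-likelihood), and summed per gene for hosts, all 9 libraries in 1 fit. Benjamini-Hochberg adjustment ran over all features of each fit, at 0.05. The fits were also run on simulated counts, with no division of shared reads between transcripts, and their recovery is not given here. Sequences and positions are from GENCODE 29 (GRCh38), which may not be the authors' release. Software was Python 3.11.15 with pandas 2.3.3, numpy 2.4.6 and matplotlib 3.10.9, and R 4.3.3 with DESeq2 1.42.0.

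Named were the 8 members of each class with the highest mean TPM, LYPLA1, the 4 largest changes each way in each comparison with control and class among members past 0.05, at 1 TPM or more in either group and without overlap, and from each of 6 gene lists the 2 hosts with the highest share where 0 passed. 1 member that the rule names is not reported here. Members and lists were chosen with earlier results of these data known. Alternatives were other pseudocounts, priors, filters and scalings, DESeq2, a replicate block, only the compared groups, and leaving out each library. An edgeR fit on class reads and a minimum of 100 class reads were added after seeing the data.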

Additional observations from a re-analysis of the deposited data

How the results depend on the processing

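For the library shares of TPM, the direction of each comparison with control was the same without each library; this was not run on estimated reads. The retained-intron difference between APT1wt and control was 0.269 percentage points by TPM, 0.152 to 0.349 without each library, and 0.0911 by estimated reads. That between shAPT1 and control was 0.150 by TPM, 0.0323 to 0.231 without each library and -0.0206 by estimated reads, and the decay differences were 0.118 to 0.22 (shAPT1) and 0.0668 to 0.168 (APT1wt).

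For host shares the count of genes past 0.05 was 0 in each comparison and class. It became 1 for decay shares in APT1wt against control, with a pseudocount of 5 estimated reads or of 0.1 TPM. In shAPT1 against APT1wt it became 1 with a constant prior variance, 2 with 5 estimated reads and 1 with 0.1 TPM. Leaving out each library gave 0 to 1 in each of the 6 cases.

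For single transcripts (retained-intron and decay calls, in that order), DESeq2 raised the counts to 189 and 155 in shAPT1 against control, 166 and 139 in APT1wt against control, and 178 and 136 in shAPT1 against APT1wt. The share of all transcripts passing in DESeq2 was not counted. Fits of only the compared groups gave 2 and 4, 15 and 20, and 3 and 3. With no filter on low counts APT1wt against control gave 10 retained-intron calls, and shAPT1 against APT1wt gave 8 and 11. Without each library the counts ran from 4 to 29 and 10 to 27 in shAPT1 against control, 9 to 21 and 8 to 29 in APT1wt against control, and 3 to 21 and 3 to 16 in shAPT1 against APT1wt. Fits without 1 library or a group have fewer samples, and otherwise the cause was not tested. No call changed its direction under any setting tried.

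No shared effect of the replicate number was visible, since same-numbered deviations from the group means correlated at -0.027 to 0.034 in the host shares. This cannot show whether the libraries were handled in matched sets. With the replicate number as a block the counts were 4 and 10 in shAPT1 against control, 8 and 7 in APT1wt against control, and 3 and 2 in shAPT1 against APT1wt. Depth limits many members: 7535 retained-intron and 4617 decay transcripts had under 3 estimated reads summed over all 9 libraries.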
